A study of Mus musculus with 24 samples.

Results

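The ATP-binding cassette (ABC) family was taken as every gene whose mouse symbol is Abc followed by a letter from a to g and a number, with pseudogenes left out. In the deposited files 50 of 52636 genes met this rule, all of them annotated as protein coding, and the rule on pseudogenes removed 0. Subfamily A had 16 members, B 10, C 10, D 4, E 1, F 3 and G 6. The livers came from C57BL/6 mice aged 5 months. Control mice had free access to food (ad libitum, AL), and the others received 30% fewer calories (calorie restriction, CR) for 3 months, starting at the age of 2 months. Both diets were sampled at zeitgeber times (ZT) 2, 6, 10, 14, 18 and 22 h, with 2 libraries in each of the 12 groups, so 12 libraries a diet and 24 in all. Each library held poly(A)-selected, unstranded RNA that had been recovered with polysomes, the transcripts that carry several ribosomes. Total RNA was not analysed here, so the amount of a transcript and its loading onto ribosomes cannot be told apart. The sources used here do not give the hours of feeding. The labels number the libraries without naming separate animals, so a p-value here reflects how much these libraries scatter, and that scatter may be technical. A library is named below by diet, time and number, such as CR ZT10 2.

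ABC transporters are membrane proteins that spend ATP at paired cytosolic domains to move a substrate across a membrane, most often outwards. In the liver they secrete bile salts, phospholipid, sterols and conjugates into the bile canaliculus, load lipoproteins with lipid, export drugs, and carry fatty acids, peptides or cofactors into organelles. Members of subfamilies E and F have the ATP-binding domains without the membrane part and act on ribosomes, and a few members of subfamily C regulate potassium channels.

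Counted reads per library were 13.8 to 60.8 M (M, mega), of which features that collect ribosomal RNA took 1.02% to 62.2%, which left 5.64 to 59.6 M. Levels are CPM, counts relative to the library's size after a composition correction (TMM), and a count of 3 corresponded to 0.0356 to 0.342 CPM. The 8 hepatocyte markers summed to 32100 to 84100 CPM per library, and 0 of them passed the diet test. Of 9 Kupffer cell (liver macrophage) markers 8 were lower and 1 higher in CR, and their sum was 175 to 421 CPM in AL and 87.1 to 167 CPM in CR. Of 6 stellate cell markers 3 were higher and 0 lower (sum 73.6 to 311 CPM in AL, 159 to 300 CPM in CR). Cholangiocyte markers did not pass the test (0 of 6; sum 33.7 to 125 CPM in AL, 22.7 to 58.3 CPM in CR), nor did the 4 tested of 5 neutrophil markers. Of 7 endothelial markers 1 was higher and 1 lower, and of the 6 tested of 7 lymphocyte markers 2 were lower. AL ZT22 2C had the highest AL sums of cholangiocyte (125 CPM), neutrophil (107 CPM), lymphocyte (23.8 CPM), Kupffer cell and endothelial markers. In the other AL libraries cholangiocyte, neutrophil and lymphocyte sums reached at most 66.9, 14 and 10.4 CPM. Stellate cell and erythroid sums were not highest in AL ZT22 2C, and its hepatocyte sum was the lowest, 32100 CPM. Each of the marker genes was counted in at least 1 library. In bulk tissue fewer cells of a type and less RNA per cell cannot be told apart, and the part of cell makeup in the results below was not tested.

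Of the 50 members, 40 passed the filter on low counts and were tested, and 36 had counts in every library. No count was found in any library for Abca12, Abca15, Abca16 and Abcb5. The other 6 that were not tested, Abca4, Abca13, Abca17, Abcc8, Abcc12 and Abcg4, had at most 13 counts in 1 library. Together the members gave 13100 to 99100 counts per library.

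The most abundant member per kilobase of exon was Abcb11, the bile salt export pump, with 56.4 ± 17.1 CPM per kb (SD, n = 24). Abcd3, a transporter of the peroxisomal membrane, followed at 35.2 ± 15 CPM per kb, and Abcb11 was above it in 21 of 24 libraries. Next came Abcf1, a ribosome-associated protein that takes part in the start of translation, at 18.5 ± 7.91 CPM per kb, below Abcd3 in 19 of 24 libraries. From there on neighbours overlapped widely: Abcf1 was above Abcb4 in 15 of 24 libraries, Abcb4 above Abcc3 in 13, Abcc3 above Abcc2 in 14, and Abcc2 above Abca6 in 12. Without correction for length, Abcb11, Abcd3, Abcb4 and Abcc2 held 43.1% to 61% of all member CPM in a library (median 53.8%). The sum over members was 1466 ± 218 CPM in AL and 1552 ± 476 CPM in CR (SD, n = 12 each), or 1434 ± 254 CPM in CR (n = 11) without CR ZT10 2. That library stood apart at 2854 CPM, with every other at or below 1951, and it had the highest value of 15 of the 40 tested members.

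**Figure D1:**
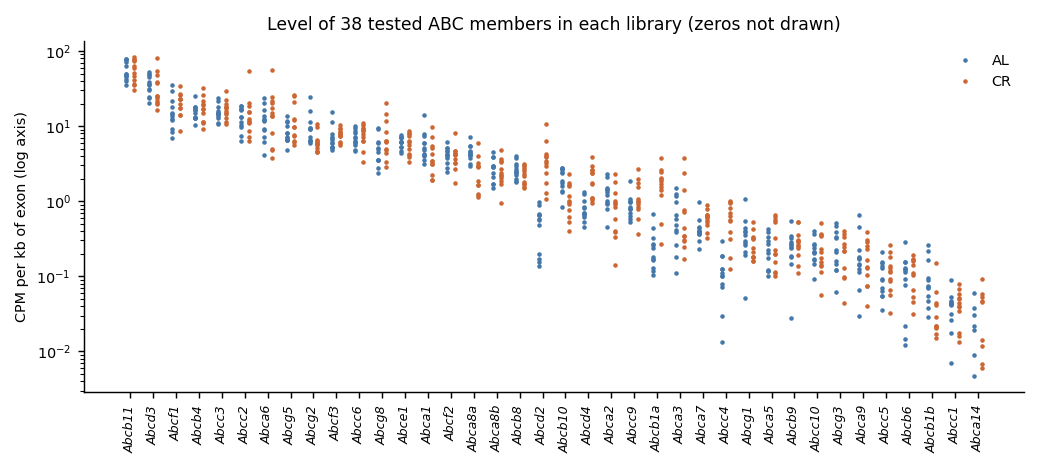
Level of 38 of the 40 tested members in every library, in CPM per kb of exon on a log axis, ordered by the mean over 24 libraries. Each point is 1 library (blue AL, orange CR), and values of 0 are not drawn. Abcb11 leads with a mean of 56.4 CPM per kb, and the diets separate fully only for Abcd2.

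On the mean over the 6 time points, 9 of 40 tested members (22.5%) differed between diets at an adjusted p under 0.05 (edgeR's quasi-likelihood test, p-values adjusted after Benjamini and Hochberg over all tested genes), where 12.7% of the 15490 tested genes did. Higher in CR were 5 members (5.6% of all tested genes), namely Abcd2, Abcb1a, Abcc4, Abcd4 and Abcg8. Lower were 4 (7.05% of all tested genes), Abcb10, Abcb1b, Abca8a and Abcg2. The median log2 change, CR minus AL, was 0.12 over the 40 members with a range of -1.68 to 2.99, and -0.02 over all tested genes. By subfamily, D had 2 of 4 tested members higher, B 1 higher and 2 lower of 9, G 1 higher and 1 lower of 5, C 1 higher of 8 and A 1 lower of 10, while E and F had 0 of 1 and 0 of 3. All 12 CR libraries lay beyond all 12 AL libraries for 1 member, Abcd2 (0.284% of all tested genes). Signs agreed across all 6 time points for 9 members (14.3% of all tested genes), 8 of which are among the called ones; Abcb1b was lower at 5 of 6, and the ninth was Abcb8.

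**Figure D2:**
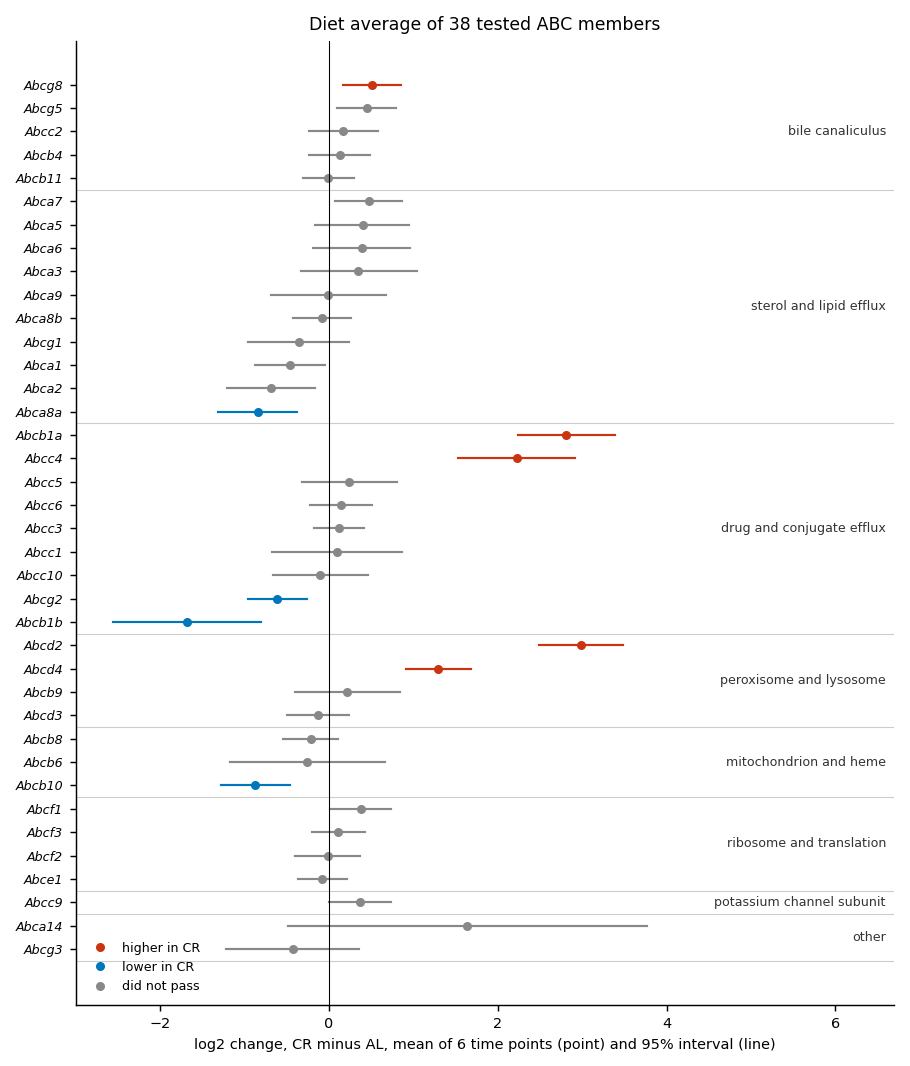
Change of 38 of the 40 tested members between diets as log2 (CR minus AL), averaged over 6 time points, with the 95% interval as a line, grouped by role. Red points passed the test as higher, blue as lower, and grey did not pass; Abcd2 (2.99) and Abcb1a (2.81) lie farthest to the right and Abcb1b (-1.68) farthest to the left.

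The bile canaliculus role held 5 members, of which 1 was higher, 0 were lower and 4 did not pass, with a median log2 change of 0.17. Abcg2, which also sits in the canalicular membrane and was lower, is counted with drug efflux. Abcb11, which pumps bile salts into bile, ranged from 181 CPM (median 254) to 405 CPM in AL and from 154 CPM (median 285) to 432 CPM in CR. The ranges overlapped almost completely, and the log2 change was -0.01 ± 0.15 (SE), with a 95% interval of -0.31 to 0.30. Abcb4, the floppase that supplies phosphatidylcholine to bile, was at 98.7 to 238 CPM in AL (median 148) and 86.6 to 301 CPM in CR (median 158), a log2 change of 0.13 ± 0.17 with an interval of -0.23 to 0.49. Abcc2, which exports conjugated bilirubin and other organic anions, was at 54.8 to 160 CPM (median 113) and 54.6 to 463 CPM (median 103), with a change of 0.17 ± 0.20 and an interval of -0.24 to 0.58. The 463 CPM belong to CR ZT10 2, and Abcc2 was at most 173 CPM in the other CR libraries.

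Abcg5 and Abcg8 form the heterodimer that secretes cholesterol and plant sterols into bile. Their genes lie head to head on chromosome 17 (Abcg5 at 84658234 to 84683011, minus strand, and Abcg8 at 84676302 to 84700333, plus strand, GRCm38). The stretch between their RefSeq starts is shown because both genes are transcribed away from it, at chr17:84683012-84683120 of GRCm38.p6, read on the plus strand with the start of Abcg5 just before its first base and that of Abcg8 just after its last.
Abcg5 to Abcg8: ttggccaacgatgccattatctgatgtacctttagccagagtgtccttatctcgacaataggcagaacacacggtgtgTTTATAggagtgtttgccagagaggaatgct
The stretch has 109 bases and a GC content of 45.9%. Capitals mark the single match among the motifs searched on both strands, which are spelled out with the Abcc4 promoter. It is a TATA box (TATAAA) 31 to 26 bases before the start of Abcg8. The motif lies on the opposite strand, the one on which Abcg5 is transcribed, so it does not read towards Abcg8. Of windows of this length before RefSeq starts, 5.9% hold that motif on either strand. The annotation used for positions also has an Abcg8 transcript that starts inside Abcg5, their exons overlap, and the reads carry no strand, so reads from the overlap cannot be assigned to one of the genes.

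Abcg8 was at 8.79 to 35.6 CPM in AL (median 17.9) and 10.8 to 75.5 CPM in CR (median 23.3). The highest AL libraries, 35.6 and 34.5 CPM, and the highest CR libraries, 75.5 and 53.5 CPM, were those of ZT10, and the ranges of the diets overlapped. Abcg8 rose by a log2 change of 0.51 ± 0.16 (adjusted p = 0.0427, edgeR), with the same sign at 6 of 6 time points. The call was lost in 15 of the 24 fits that left out 1 library, with a log2 change from 0.38 to 0.60, and the smallest change, 0.38 with adjusted p = 0.121, came without CR ZT14 2. It held only without AL ZT2 2, AL ZT6 2, AL ZT14 2, AL ZT18 1, AL ZT22 2C, CR ZT22 2, CR ZT14 1, CR ZT10 1 or CR ZT6 2. Abcg5 was at 12.9 to 36.5 CPM in AL (median 20.7) and 15.3 to 70.2 CPM in CR (median 26.5). The 2 CR libraries of ZT10, at 70.2 and 69.2 CPM, were its highest. Its log2 change of 0.45 ± 0.17 did not pass (adjusted p = 0.0837, edgeR), but it passed in DESeq2 (0.49, adjusted p = 0.042) and in edgeR without CR ZT22 2 (adjusted p = 0.03), without CR ZT6 2 (0.0459) and without CR ZT14 1 (0.0443). Across the 24 libraries log2 CPM of Abcg5 and Abcg8 correlated with Pearson's r = 0.84 (permutation p = 1e-05, the smallest these permutations can give) and Spearman's rho = 0.71 (permutation p = 8e-05), or r = 0.73 without the 2 libraries farthest from the median. Within AL r was 0.67 (permutation p = 0.02; rho 0.59, permutation p = 0.04; n = 12), and within CR 0.90 (permutation p = 2e-04; rho 0.77, permutation p = 0.005; n = 12). Leaving out the 2 farthest libraries gave 0.43 in AL and 0.78 in CR, so in AL the relation rests largely on those libraries. The permutations shuffled libraries freely across time points, and across diets for all 24. Group means that both genes share, such as high values at ZT10, therefore enter these p-values.

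**Figure D3:**
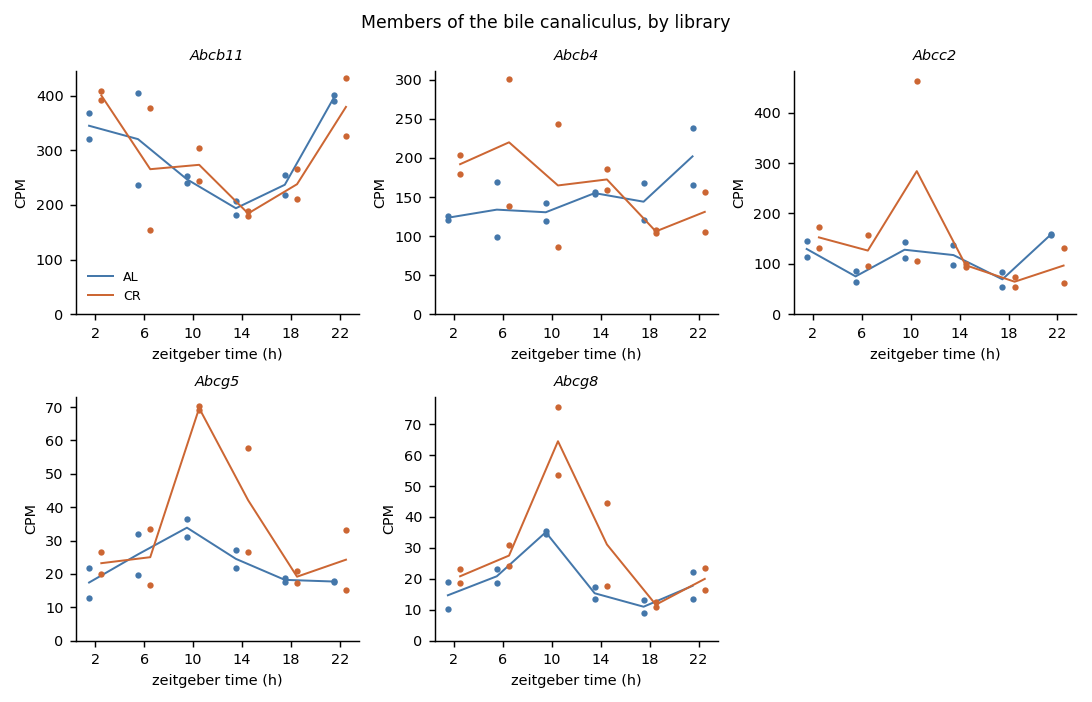
Level in CPM of the 5 members of the bile canaliculus by zeitgeber time. Each point is 1 library and each line joins the means of the 2 libraries of a group (blue AL, orange CR). Abcb11 has its lowest group mean at ZT14 in both diets, while Abcg5 and Abcg8 are highest at ZT10, at 69.2 to 70.2 and 53.5 to 75.5 CPM in CR.

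Among 11 members of sterol and lipid efflux, 10 were tested, 0 were higher and 1 was lower in CR, with a median log2 change of -0.04. The lower one was Abca8a (chromosome 11, 110025634 to 110095978, minus strand), a subfamily A member related to the cholesterol efflux transporter Abca1. It ranged from 18.4 CPM (median 26.7) to 44.4 CPM in AL and from 7.17 CPM (median 14.7) to 37.8 CPM in CR. The CR libraries spread widely: CR ZT10 2 was the highest at 37.8 CPM, and its partner CR ZT10 1 was at 7.69 CPM. Abca8a fell by a log2 change of -0.84 ± 0.22 (adjusted p = 0.0152, edgeR), and was lower at 6 of 6 time points.

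Abca6 had the highest level per length of this role, at 14.5 ± 10.7 CPM per kb (SD, n = 24). Its values were 22 to 128 CPM in AL (median 63.9) and 20.6 to 299 CPM in CR (median 77.6), again with the highest in CR ZT10 2, and its log2 change of 0.39 ± 0.28 did not pass. Abca1, which lipidates apolipoprotein A-I to form high-density lipoprotein, was at 32.8 to 146 CPM (median 51.5) in AL and 19.7 to 99.5 CPM (median 35.5) in CR, a log2 change of -0.46 ± 0.20 that did not pass (adjusted p = 0.13, edgeR). Without CR ZT10 2 the change of Abca1 was -0.73 and passed (adjusted p = 0.00138, edgeR), and it passed with no filter on low counts (0.0368) and with the ratio of ribosomal RNA as covariate (0.0432). Abca2, a lysosomal transporter with a part in sterol handling, did not pass on the average (-0.69 ± 0.25, adjusted p = 0.0754, edgeR). It did pass without AL ZT6 1 (adjusted p = 0.049), without CR ZT10 2 (0.00549) and without CR ZT14 2 (0.0391), and with no composition factor (0.0448), no filter on low counts (0.00279) or the ribosomal RNA ratio as a covariate (0.038). At ZT14 Abca2 was at 7.89 and 19.2 CPM in AL and at 1.17 and 3.36 CPM in CR, so the pairs did not overlap. It fell there by a log2 change of -2.57 ± 0.65 (adjusted p = 0.0478, edgeR), and over fits without 1 library the change at ZT14 was -3.51 to -1.8, with an adjusted p of up to 0.416 without AL ZT14 2 or CR ZT14 1. The other members of this role, Abca3, Abca5, Abca7, Abca8b, Abca9 and Abcg1, had log2 changes of -0.36 to 0.47 that did not pass, though Abca7 did without AL ZT6 2 (0.60, adjusted p = 0.0407, edgeR). Reads of Abca3 are uncertain, as 10.1% of its words of 50 bases also occur in an overlapping gene.

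Drug and conjugate efflux had 10 members, 9 of them tested, with 2 higher, 2 lower and a median log2 change of 0.12. Abcb1a (chromosome 5, 8660077 to 8748575, plus strand) encodes P-glycoprotein, the broad drug pump of the plasma membrane that in rodents has a close copy, Abcb1b, in the same cluster. Abcb1a was at 0.563 to 3.69 CPM in AL (median 1.16) and 1.46 to 20.8 CPM in CR (median 9.77). In CR 10 libraries were at or above 6.61 CPM, higher than all AL libraries, and the other two, CR ZT6 2 at 1.46 and CR ZT18 2 at 2.68 CPM, lay within the AL range. Abcb1a rose by a log2 change of 2.81 ± 0.28 (adjusted p = 2.44e-07, edgeR) and was higher at 6 of 6 time points.

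Abcb1b (chromosome 5, 8798147 to 8866315, plus strand) went the other way, at very low counts of 0 to 94 per library. It was at 0.23 to 2.1 CPM in AL (median 0.585) and 0 to 1.19 CPM in CR (median 0.175), with the CR median inside the range that a count of 3 corresponds to. The ranges overlapped, the highest CR library being one of ZT2. Abcb1b fell by a log2 change of -1.68 ± 0.42 (adjusted p = 0.0106, edgeR). Of words of 50 bases, 22.5% of those of Abcb1a and 12.8% of those of Abcb1b occur in other genes, most of them in each other, so part of their reads could not be told apart.

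Abcc4 (chromosome 14, 118482692 to 118706219, minus strand) is the multidrug resistance protein of the basolateral hepatocyte membrane, which exports cyclic nucleotides, conjugates and bile acids into blood. It was at 0.0858 to 1.88 CPM in AL (median 0.678) and 0.797 to 6.51 CPM in CR (median 3.85). Its counts were 1 to 331 per library. The lowest AL value, in AL ZT22 2d, lay below the 0.257 CPM that a count of 3 corresponds to there. CR ZT6 2 (0.797 CPM) and CR ZT18 2 (1.1 CPM) were again the lowest of CR and lay within the AL range, and the 10 others were at or above 2 CPM. Abcc4 rose by a log2 change of 2.23 ± 0.34 (adjusted p = 9.11e-05, edgeR), higher at 6 of 6 time points. RefSeq has a pair of starts for Abcc4, one of them 29288 bases inside the gene. The 250 bases before the other, which equals the annotated gene start and whose upstream bases overlap no exon, are shown, at chr14:118706220-118706469 of GRCm38.p6, printed 5′ to 3′ on the minus strand.
Abcc4: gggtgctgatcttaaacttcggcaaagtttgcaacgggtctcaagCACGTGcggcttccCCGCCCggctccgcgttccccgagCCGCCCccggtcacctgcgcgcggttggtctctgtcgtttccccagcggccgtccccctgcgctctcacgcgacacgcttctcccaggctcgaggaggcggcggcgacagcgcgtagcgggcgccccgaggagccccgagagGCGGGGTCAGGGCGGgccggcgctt
Capitals mark motif matches on either strand. From the far end they are an E-box (CACGTG) 205 to 200 bases before the start, GC boxes (GGGCGG or its reverse complement) at 191 to 186, 167 to 162 and 16 to 11, and the core of an antioxidant response element (TGACNNNGC, here GCGGGGTCA on this strand) at 25 to 17, which touches the last GC box without overlapping it. Of 32851 windows of the same length before RefSeq starts, 6.02% hold the E-box, 32.7% a GC box and 10.2% the antioxidant core. The window is 72% GC, with a median of 52.4% over all windows. No match was found for the nuclear receptor half-site AGGTCA, the STAT palindrome TTCNNNGAA, the D-box TTATGTAA, CCAAT or TATAAA, which 14%, 7.02%, 0.819%, 33.8% and 12.4% of windows hold. The half-site repeats DR1, DR4 and IR1, which contain that half-site, were searched too, and 0.0335%, 0.0152% and 0.00609% of windows hold them. The window of Abcb10, a called member that meets the same conditions, holds none of these motifs and is not printed.

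Abcg2 (chromosome 6, 58584523 to 58695676, plus strand), the breast cancer resistance protein, exports urate, sulfate conjugates and many drugs at the canalicular membrane. It was at 48.8 to 196 CPM in AL (median 75.5) and 36.7 to 87 CPM in CR (median 47.7). The 2 highest CR libraries were CR ZT6 2 (87 CPM) and CR ZT18 2 (78.9 CPM), the 10 others were at or below 53 CPM, and the highest AL library was AL ZT6 1 at 196 CPM. Abcg2 fell by a log2 change of -0.61 ± 0.17 (adjusted p = 0.0194, edgeR), lower at 6 of 6 time points. Leaving out AL ZT6 1 ended the call (-0.50, adjusted p = 0.052, edgeR), as did scaling with no composition factor (adjusted p = 0.0968). Abcc3, which exports glucuronides and bile acids to blood, had the highest level per length of this role at 16.3 ± 4.55 CPM per kb (SD, n = 24). It was at 60.3 to 133 CPM in AL and 60.6 to 168 CPM in CR, with a log2 change of 0.12 ± 0.14 and a 95% interval of -0.18 to 0.42. The other tested members, Abcc1, Abcc5, Abcc6 and Abcc10, had changes of -0.10 to 0.24 that did not pass.

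**Figure D4:**
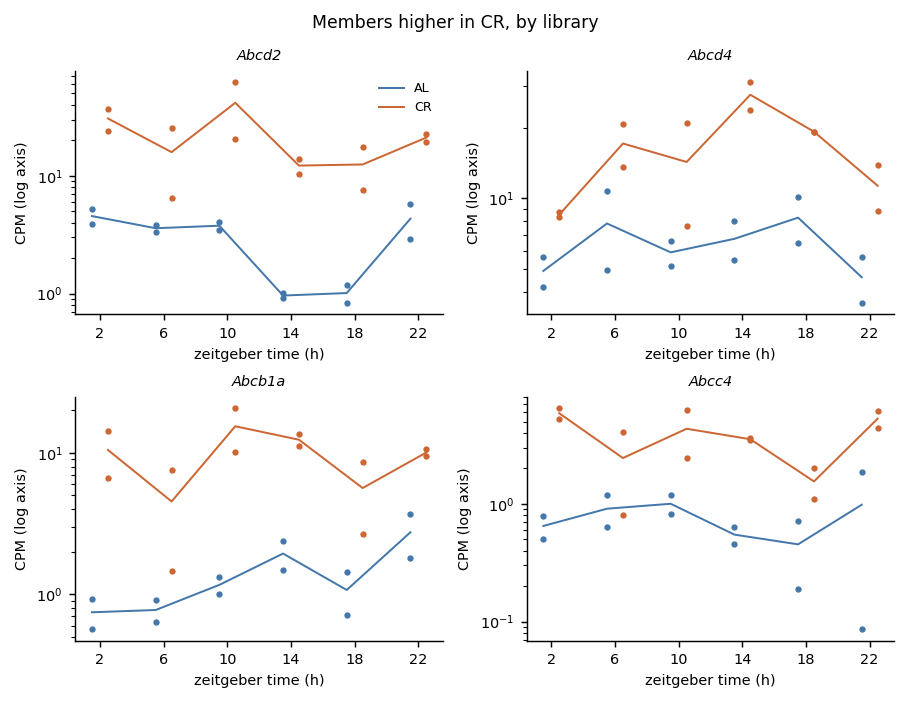
Level in CPM, on log axes, of 4 members higher in CR by zeitgeber time. Each point is 1 library and each line joins group means (blue AL, orange CR). The points of Abcd2 do not overlap between diets, and for Abcb1a and Abcc4 the lowest CR points are those of CR ZT6 2 and CR ZT18 2.

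Organelle members of the peroxisome and lysosome numbered 5, all tested, with 2 higher, 0 lower and a median log2 change of 0.27. Abcd2 (chromosome 15, 91145871 to 91191799, minus strand) imports very long-chain and polyunsaturated acyl-CoA into peroxisomes. It was at 0.828 to 5.75 CPM in AL (median 3.39) and 6.44 to 62.9 CPM in CR (median 19.9), with no overlap. In AL the 4 libraries of ZT14 and ZT18 were the lowest (0.828 to 1.19 CPM), and in CR the lowest were CR ZT6 2 (6.44 CPM) and CR ZT18 2 (7.54 CPM). Abcd2 rose by a log2 change of 2.99 ± 0.24 (adjusted p = 1.79e-08, edgeR), the largest change of the 40 tested members.

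Abcd4 (chromosome 12, 84601464 to 84617413, minus strand) differs from the other D members in its place, the lysosome, where it takes part in the release of vitamin B12. It was at 3.59 to 10.7 CPM in AL (median 5.64) and 7.66 to 31.3 CPM in CR (median 16.5), and the ranges overlapped between 7.66 and 10.7 CPM. CR ZT6 2 (20.6 CPM) and CR ZT18 2 (19.2 CPM) were above its CR median here. Abcd4 rose by a log2 change of 1.29 ± 0.18 (adjusted p = 4.53e-05, edgeR), higher at 6 of 6 time points.

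The other peroxisomal members did not pass. Abcd3, the most abundant of them, was at 134 to 349 CPM in AL (median 234) and 109 to 526 CPM in CR (median 166), with a log2 change of -0.13 ± 0.18. The log2 change was 0.22 ± 0.30 for Abcb9, a lysosomal peptide transporter.

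The mitochondrial and heme group had 4 members, all tested, with 0 higher, 1 lower and a median log2 change of -0.23. Abcb10 (chromosome 8, 123952459 to 123983122, minus strand), an inner mitochondrial membrane protein tied to heme and biliverdin metabolism, was at 3.63 to 12 CPM in AL (median 9.16) and 1.75 to 9.85 CPM in CR (median 4.31). Both AL libraries of ZT6 (3.63 and 5.69 CPM) lay low among AL, and both CR libraries of ZT2 (9.85 and 7.17 CPM) high among CR. Abcb10 fell by a log2 change of -0.87 ± 0.20 (adjusted p = 0.00535, edgeR), lower at 6 of 6 time points. Abcb10 is also known as an erythroid gene, and of 6 erythroid markers 1, Alas2, was lower (log2 change -1.87 ± 0.21) and 0 were higher, with a list sum of 360 to 2380 CPM in AL and 495 to 4060 CPM in CR and a list median of 0.47. The globins Hba-a1, Hba-a2 and Hbb-bs had log2 changes of 0.53, 0.53 and 0.41 and Slc4a1 one of 0.53, none of which passed, and the part of these markers in the result was not tested. A share of 8.27% of the 50-base words of Abcb10 occurs in other genes, mostly one that overlaps its exons. Among the others that did not pass, the log2 change of Abcb8 was -0.21 ± 0.16, and that of Abcb6 -0.26 ± 0.44; 50% of the words of Abcb6 occur in an overlapping gene, so its counts are uncertain.

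**Figure D5:**
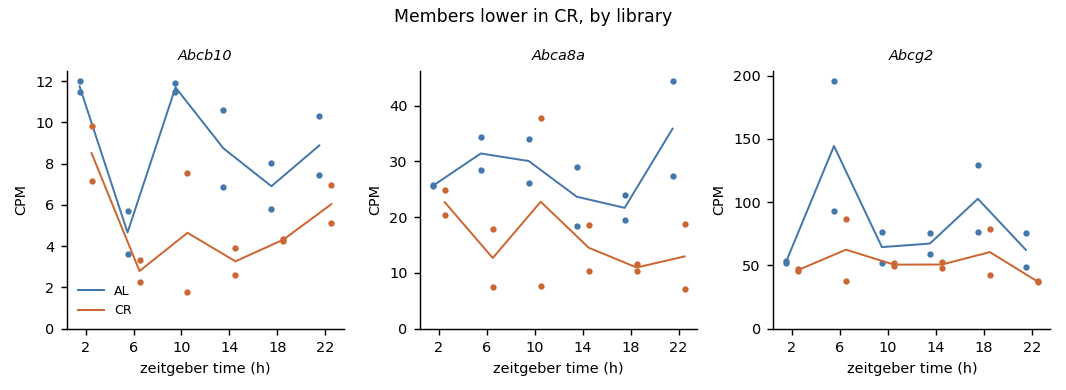
Level in CPM of 3 of the 4 members lower in CR by zeitgeber time; Abcb1b, with 94 counts at most, is not drawn. Each point is 1 library and each line joins group means (blue AL, orange CR). Abcb10, Abca8a and Abcg2 are lower in CR at each of the 6 time points on average, with overlapping libraries.

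None of the 4 ribosome-acting members passed. Abce1, which splits ribosomes after termination, was at 26.7 to 46 CPM in AL and 20.2 to 52.2 CPM in CR (log2 change -0.08 ± 0.14). Abcf1 was at 30.4 to 154 CPM in AL (median 62.3) and 38 to 152 CPM in CR (median 93.5), with a change of 0.38 ± 0.18 (adjusted p = 0.172, edgeR), and the log2 changes of Abcf2 and Abcf3 were -0.01 ± 0.19 and 0.11 ± 0.15. Of the 2 potassium channel subunits, Abcc9, the sulfonylurea receptor of vascular and muscle channels, was tested, at 4.39 to 15.5 CPM in AL and 3.08 to 22.5 CPM in CR (log2 change 0.37 ± 0.18). The remaining tested members were Abcg3, at 0.22 to 1.82 CPM in AL and 0 to 1.43 CPM in CR, and Abca14, at 0 to 0.354 CPM and 0 to 0.541 CPM with 2 groups without counts. Neither passed, and their role in liver is not described here.

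At single time points 2 libraries face 2, and 3 members higher on the average, Abcd2, Abcb1a and Abcd4, together with Abca2 made up all calls in the same edgeR test. At ZT2 2 of 40 members were called (0.562% of all tested genes), at ZT10 2 (0.742%), at ZT14 4 (1.7%) and at ZT18 1 (0.562%). At ZT6 (0.387% of all tested genes) and ZT22 (0.936%) 0 members were called by edgeR. DESeq2 called 2 and 1 members there, and limma-trend 0 and 1, with no share of all tested genes taken for these tools. Abcd2 was called at ZT2, ZT10, ZT14 and ZT18, with log2 changes of 2.76 ± 0.57, 3.46 ± 0.59, 3.65 ± 0.65 and 3.65 ± 0.62. At ZT14 its AL libraries were at 1.01 and 0.912 CPM and its CR libraries at 10.4 and 14 CPM. Abcb1a was called at ZT2 (3.79 ± 0.70), ZT10 (3.72 ± 0.68) and ZT14 (2.64 ± 0.68), and at ZT2 it was at 0.563 and 0.927 CPM in AL and 14.4 and 6.61 CPM in CR. Abcd4 was called at ZT14, where 5.49 and 7.98 CPM in AL stood against 23.8 and 31.3 CPM in CR (log2 change 2.04 ± 0.46). Passing the threshold depended on single libraries: the count became 0 at ZT2 without AL ZT2 1, AL ZT2 2 or CR ZT2 1, at ZT10 without either AL library of ZT10, at ZT14 without either AL library of ZT14, and at ZT18 without AL ZT18 1, AL ZT18 2 or CR ZT18 1. Over these fits the log2 changes kept their direction: that of Abcd2 was 2.41 to 3.03 at ZT2, 2.43 to 4.06 at ZT10, 3.41 to 3.85 at ZT14 and 2.92 to 4.13 at ZT18. That of Abcb1a was 3.13 to 4.25 at ZT2, 3.11 to 4.15 at ZT10 and 2.37 to 3.06 at ZT14, and that of Abcd4 1.79 to 2.33 at ZT14.

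Whether the diet effect varied with time was tested for each member, and 0 of 40 passed (edgeR's quasi-likelihood F-test, 0% of all tested genes), with 4 at an unadjusted p under 0.05 (8.61% of all tested genes). DESeq2 and limma-trend also called 0. Calls at some time points and not at others therefore do not show that the effect differed between them.

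A 24 h cosine per diet, fitted in 1 model over all 24 libraries, called 0 members in AL by edgeR (0.42% of all tested genes). DESeq2 and limma-trend also called 0 in AL. In CR edgeR called 1 member (1.94% of all tested genes), DESeq2 2 and limma-trend 0. At an unadjusted p under 0.05 there were 5 members in AL (10.4% of all tested genes) and 10 in CR (17.4%). The rhythmic member was Abcg8 in CR, with an amplitude from mean to peak of 0.88 on the log2 scale, a peak at ZT 9.2 and adjusted p = 0.0434. Its AL fit had an amplitude of 0.56 and a peak at ZT 8.2 (adjusted p = 0.45). The CR call was lost without either CR library of ZT10 (adjusted p = 0.0803 and 0.109), of ZT2 or of ZT18, without CR ZT14 2, CR ZT22 2, AL ZT2 2, AL ZT6 2, AL ZT14 2 or AL ZT22 2d. Over all fits that left out 1 library the adjusted p was 0.0234 to 0.109. It was also lost with limma-trend (adjusted p = 0.0611), no composition factor (0.32), no ribosomal RNA features (0.0516) and their ratio as a covariate (0.0515), and held in DESeq2 (0.0081). Abcg5 in CR missed the threshold with an amplitude of 0.74 and a peak at ZT 10.6 (adjusted p = 0.0569, edgeR). Abcb11 had amplitudes of 0.47 in AL and 0.48 in CR with a peak at ZT 1.4 in both (adjusted p = 0.373 and 0.183, edgeR). Its group means were 345 CPM in AL and 401 CPM in CR at ZT2 and 194 and 184 CPM at ZT14. A difference in rhythm between diets was called for 0 of 40 members (edgeR, 0% of all tested genes; 3 at an unadjusted p under 0.05, 6.49% of all tested genes; DESeq2 and limma-trend 0).

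The libraries CR ZT6 2 and CR ZT18 2 were the 2 CR libraries nearest to AL for Abcd2, Abcb1a, Abcc4 and Abcg2, and not for Abcd4, Abcb10 or Abca8a. A pair of genes that differ between the sexes in mouse liver, looked up after these values were seen, also set these libraries apart in part. Hsd3b5, a steroid dehydrogenase typical of male liver, was at 49.3 to 310 CPM in AL, 72.6 CPM in CR ZT18 2, 2.98 CPM in CR ZT6 2 and 0.238 to 5.08 CPM in the 10 other CR libraries. Cux2, a transcriptional repressor typical of female liver, was at 0 to 0.625 CPM in AL, 1.46 CPM in CR ZT6 2, 8.23 CPM in CR ZT18 2 and 4.04 to 25.8 CPM in the other 10. CR ZT18 2 thus fell within the AL range for Hsd3b5 and CR ZT6 2 below the other CR libraries for Cux2, and the part of this in the members' values was not tested. Without both libraries the log2 change was 3.18 for Abcd2, 3.04 for Abcb1a, 2.41 for Abcc4 and -0.82 for Abcg2. As both were nearest to AL for these members, larger changes without them follow from that position and are no separate support. Of the 9 called members Abcg8 alone lost its call then (adjusted p = 0.0697, edgeR).

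Genes that work with the members were read from lists by role, in the same edgeR test, beside 5.6% higher and 7.05% lower among all tested genes. Of 14 tested bile acid partners 3 were higher and 3 lower (median log2 change -0.16). Cyp7b1, the oxysterol hydroxylase of the alternative bile acid pathway, fell by -2.36 ± 0.25, and Cyp8b1, which sets the share of cholic acid, by -0.84 ± 0.21. Slc51b, a subunit of the basolateral bile acid exporter, rose by 1.31 ± 0.31 at 0.522 ± 0.377 CPM in AL and 1.46 ± 1.12 CPM in CR (SD, n = 12 each), while its partner Slc51a had 0 counts in every library. Klb, the co-receptor for the ileal hormone that represses bile acid synthesis, rose by 0.81 ± 0.22.

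Of 16 sterol handling genes 3 were higher and 0 lower (median 0.20). Among them were Soat2, which esterifies cholesterol (0.58 ± 0.18), and Npc1, which releases it from lysosomes (0.51 ± 0.16). Of 12 genes of drug sensing and conjugation 3 were higher and 0 lower (median 0.32). Por, the electron donor of microsomal cytochromes P450, rose by 1.26 ± 0.14 from 126 ± 70.6 to 303 ± 180 CPM (SD, n = 12 each). Nqo1, a quinone reductase, rose by 1.45 ± 0.18, and Nr1i2, the pregnane X receptor, by 0.64 ± 0.17.

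Of 28 peroxisome genes 3 were higher and 1 lower (median -0.03). Acot4, a thioesterase that frees succinate and related acids from CoA, rose by 2.17 ± 0.21, Ehhadh, an enzyme of peroxisomal beta-oxidation, by 1.11 ± 0.20, and Crat, which makes acylcarnitines, by 0.93 ± 0.19, while Cat, catalase, fell by -0.50 ± 0.15. The other 24 did not pass, and the median of the list was near that of all tested genes, -0.02. Of 16 genes of heme and iron-sulfur synthesis 0 were higher and 1 was lower, Uros, an enzyme of the porphyrin pathway (-0.83 ± 0.14; list median -0.12). Of 13 genes of ribosome recycling and start control 2 were higher and 0 lower (median 0.20), both of them initiation factor subunits, Eif3j1 (0.76 ± 0.22) and Eif2s2 (0.59 ± 0.19).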

How the data were processed

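The 24 deposited files give unnormalized counts of reads for each gene. Tools named in the submitters' processing notes are FastQC, HTSeq and DESeq2, and the build is GRCm38.p5; the sources used here name no version and no aligner. Symbols and positions came from the GENCODE annotation of GRCm38, which named 52489 of the 52636 genes, and promoter sequences from RefSeq (GRCm38.p6), which had a window for 38 of the 50 members.

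Counts were tested with edgeR 4.0.16 in R 4.3.3 (TMM scaling, filterByExpr by the 12 groups, 15490 genes kept), in 1 model with a mean per group over all 24 libraries, so groups of 2 shared 1 estimate of the spread. Contrasts were the average of 6 CR groups against that of 6 AL groups, CR against AL at every time point, and the variation of the diet difference with time (F-test). A second model fitted a 24 h cosine and sine per diet. P-values were adjusted over all tested genes by Benjamini-Hochberg at 0.05. Correlations used 1e+05 permutations. Library pairs of a group differed beyond counting noise (chi-square per degree of freedom of 99.7 to 2220), and none was merged. This measure included features that collect ribosomal RNA, whose share differed within pairs, such as 2.42% and 52.1% at CR ZT10. It therefore cannot show whether the libraries of a pair come from separate animals.

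Members, roles and companion and marker lists were chosen with earlier results of these data known. Values are given for every called member, every bile canaliculus member and the member of highest level per length in each role; of each companion list up to 4 called genes of smallest p are named. Some genes that this rule names are not reported here. Companion and marker genes outside this rule, Hsd3b5, Cux2 and uncalled members named in the text were chosen after their values were seen. Sharing of 50-base words between annotated transcripts shows where reads can be split between genes. The tests were run on simulated counts first. Alternatives were DESeq2 1.42.0, limma-trend (limma 3.58.1), other scalings and filters, ribosomal RNA settings, a replicate block, and fits without named or single libraries.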

Additional observations from a re-analysis of the deposited data

How the results depend on the processing

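Under 12 alternatives and 24 fits that each left out 1 library, no called change of a member turned its direction. Abcd2, Abcb1a, Abcc4, Abcd4, Abcb10 and Abca8a were called on the diet average in all 12 and all 24, and Abcb1b in 11 of 11 and all 24, since the filter of 1 CPM in 12 libraries removes it. Abcg2 was called in 11 of 12 and 23 of 24, and Abcg8 in 9 of 12 and 9 of 24. The count of 9 called members was 8 to 10 without single libraries, with 4 to 6 higher and 4 to 6 lower. It was 10 in DESeq2 (6 higher), 8 with no composition factor, and 11 (6 lower) both with no filter on low counts and with the ratio of ribosomal RNA as covariate. Abcc9 passed without CR ZT10 1 and Abcf1 without AL ZT18 1.

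Counts at single time points moved more, and the cause was not tested. The share of all tested genes was taken in the main fit only. Counts under the alternatives, here and for the diet average, therefore cannot be set against such a share. DESeq2 called 2 members at ZT6, 2 at ZT18, 1 at ZT22 and 2 as rhythmic in CR; limma-trend called 1 at ZT22 and 0 as rhythmic in CR. With no composition factor 1 was called at ZT2, 7 at ZT22 and 0 as rhythmic in CR. With no filter on low counts 2 were called at ZT6, 5 at ZT10, 2 at ZT18, 5 at ZT22, 4 for a diet difference that varied with time, 1 and 5 as rhythmic in AL and CR, and 2 for a rhythm that differed; that setting tests other genes beside them. Leaving out the features of ribosomal RNA gave 0 rhythmic members in CR, and its ratio as a covariate gave 1 call at ZT22. Without AL ZT22 2C and AL ZT10 1, 0 were called at ZT10 and 2 at ZT14. Without CR ZT6 2 and CR ZT18 2, 2 were called at ZT6, 2 at ZT18 and 1 at ZT22. Without single libraries the count ranged from 0 to 3 at ZT2, 0 to 2 at ZT6, 0 to 6 at ZT10, 0 to 6 at ZT14, 0 to 1 at ZT18, 0 to 2 at ZT22 and 0 to 2 for rhythms in CR. The ZT6 count of 2 came without CR ZT6 2, the ZT10 count of 6 without CR ZT10 1, and the ZT22 count of 2 without either CR library of ZT10. At 0 throughout these fits were rhythms in AL, rhythm differences and variation of the diet effect with time.

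The labels do not say whether libraries of the same number belong together. Across genes, the difference between the numbered libraries of a time point in AL was correlated with that in CR. The correlation was -0.05, -0.03, 0.20, 0.03 and -0.05 at ZT2 to ZT18, and at ZT22 AL has the numbers 2C and 2d. At ZT10, where it was 0.20, the CR library taken as number 1 is labelled 1B. These values cannot show that same-numbered libraries are unpaired. With the replicate block 10 members were called on the diet average (the added one being Abca2, adjusted p = 0.043, edgeR), 1 at ZT22 and 0 as rhythmic in CR (Abcg8, adjusted p = 0.243). The median change of all tested genes was -0.02 with TMM, 0.01 with DESeq2's kind of size factors and -0.04 with library totals.

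Depth limits the low members most. The 6 members that were not tested although counted, and Abcb1b, Abca14 and Abcb6 in several libraries, lie near the level of 3 counts, so differences in them were not detectable or are imprecise at this depth. Abcc4 lies near that level in some AL libraries, so the size of its change is imprecise too. The floor of 3 counts covers counting error only. Groups of 2 libraries leave little power at a single time point.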
